A study of Mus musculus with 6 samples.

Results

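Gamma-aminobutyric acid (GABA) and glycine are the inhibitory transmitters of the retina, and 6 genes of their synthesis, packaging, uptake, breakdown and chloride dependence were described here out of 11339 genes measured. The members are *Gad1*, *Gad2*, *Slc32a1*, *Slc6a9*, *Abat* and *Slc12a5*. They were chosen by name with the comparison of knockout and wild-type retinas already known, including the opposite differences of *Gad1* and *Gad2*. All 6 were found in the table of expression values. Their values between genotypes are therefore a description and carry no test.

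RNA was sequenced from 3 *Mll1KO* and 3 WT retinal samples at postnatal day 14, and each sample was pooled from 2 retinas. *Mll1KO* mice carry floxed alleles of *Mll1*, which encodes a histone H3 lysine methyltransferase and is now called *Kmt2a*, together with *Chx10-Cre*, which drives Cre recombinase in the progenitors of the retina. The WT mice are labelled wild type, and both groups carry the strain label C57Bl6/J. The paper names that strain for its sequencing controls, whereas most of its other assays used *CreNeg* littermates. Its Methods state that all mice were backcrossed to that strain, without a number of generations. The WT group carries neither the floxed alleles nor Cre by its label, so an effect of the transgene or of the floxed alleles cannot be told apart from the loss of *Mll1*. The same holds for any strain difference left between the groups, which was not tested. The WT libraries a, b and c held 23836033, 19777205 and 19323512 reads in total. The *Mll1KO* libraries a, b and c held 23348923, 19855963 and 17961097 reads.

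GABA is made from glutamate by either of the glutamate decarboxylases encoded by *Gad1* and *Gad2*, and is degraded by GABA transaminase, the product of *Abat*. GABA and glycine are loaded into synaptic vesicles by the same carrier, encoded by *Slc32a1*, and glycine is taken back into cells by the transporter encoded by *Slc6a9*. In the retina most cells that release these transmitters are amacrine cells, with horizontal cells as another GABA-containing type, and the potassium-chloride cotransporter encoded by *Slc12a5* keeps neuronal chloride low so that the opened receptor channels can inhibit.

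Expression was given as RPKM, reads per kilobase of gene length and relative to the reads of the library. Differences between genotypes are on the log2(RPKM + 1) scale, which understates those of weakly expressed genes. Genes outside the members were tested with limma, and those with a Benjamini-Hochberg adjusted p under 0.05 over 11339 genes are called. The targeted gene *Kmt2a* had an RPKM of 36.1, 36.9 and 34.6 in WT replicates a, b and c and of 22.9, 20.4 and 22.3 in *Mll1KO* replicates a, b and c. All 3 *Mll1KO* libraries were below all 3 WT libraries, which checks their labels (log2 fold change -0.69, SE 0.05, limma adjusted p = 2.77e-05). The value covers all exons, the floxed ones and those that are not excised. Over the 11339 genes, 2643 were called, 999 higher and 1644 lower in *Mll1KO*, a share of 37.8% higher. This split depended on the scaling, since TMM factors gave 1262 higher and 1158 lower genes, or 52.1% higher. Scaling to rod genes, which gives all libraries 1 summed RPKM of 12 rod markers, moved the median difference over all genes from -0.03 to -0.32 on the log2 scale and left 2.04% of the called genes higher. The sum is of plain RPKM, so the 12 markers do not count equally and the most abundant of them set most of the factor. Rod scaling called 202 of the 11339 genes higher and 9696 lower. Every count with rod scaling below stands against these numbers.

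*Gad1* (ENSMUSG00000070880, chromosome 2 from 70553072 to 70602014, plus strand, GRCm38) had an RPKM of 29.9, 29.9 and 32.8 in WT replicates a, b and c and of 36.4, 36.4 and 41.6 in *Mll1KO* replicates a, b and c. The lowest *Mll1KO* library lay above the highest WT library, and replicate c was the highest of each group. The mean RPKM was 30.8 ± 1.68 in WT and 38.1 ± 2.98 in *Mll1KO* (SD, n = 3 each), which is 123.7% of WT. The log2 fold change was 0.30 (SE 0.06) with the scaling by library total, and -0.02 with libraries scaled to rod genes.

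*Gad2* (ENSMUSG00000026787, chromosome 2 from 22622205 to 22693874, plus strand) encodes the other decarboxylase and went the opposite way with the scaling by library total. Its RPKM was 10.5, 9.96 and 11.1 in WT replicates a, b and c and 7.02, 6.43 and 8.13 in *Mll1KO* replicates a, b and c. Every *Mll1KO* library was below every WT library, and replicate c was again the highest of each group. The mean was 10.5 ± 0.573 in WT and 7.19 ± 0.864 in *Mll1KO* (SD, n = 3 each), or 68.4% of WT, from 750 to 1464 reads per library. The log2 fold change was -0.49 (SE 0.08), and it was -0.79 with libraries scaled to rod genes.

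A ratio of 2 genes within a library does not depend on how libraries are scaled to each other. The RPKM ratio of *Gad1* to *Gad2* was 2.856, 2.998 and 2.951 in WT replicates a, b and c and 5.19, 5.66 and 5.11 in *Mll1KO* replicates a, b and c. The WT ratios lay close together and all *Mll1KO* ratios lay above them. The mean ratio was 2.94 ± 0.0724 in WT and 5.32 ± 0.298 in *Mll1KO* (SD, n = 3 each), 1.81 times as high. The summed RPKM of both decarboxylase genes was 40.3, 39.8 and 43.9 in WT replicates a, b and c and 43.4, 42.8 and 49.7 in *Mll1KO* replicates a, b and c, and here the groups overlapped. *Gad2* made up 25.4% ± 0.470 of this sum in WT and 15.8% ± 0.728 in *Mll1KO* (SD, n = 3 each). In whole retina RNA, fewer cells that express a gene and less RNA of it per cell cannot be told apart.

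**Figure D1:**
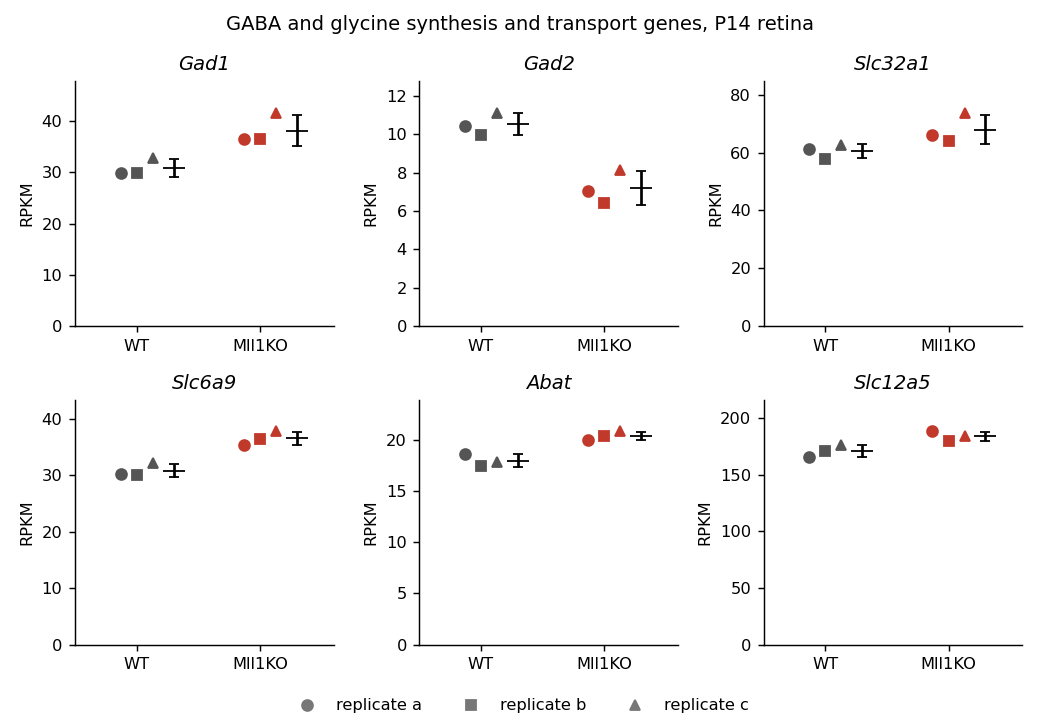
RPKM of the 6 members in each of 3 WT and 3 *Mll1KO* libraries, with the mean ± SD beside the points and each axis starting at 0. With scaling by library total, *Gad2* was the only member lower in *Mll1KO* (68.4% of WT), while with libraries scaled to rod genes the log2 fold changes of the other 5 went below 0, that of *Gad1* only to -0.02.

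*Slc32a1* (ENSMUSG00000037771, chromosome 2 from 158610767 to 158615748, plus strand), the vesicular carrier of both transmitters, had an RPKM of 61.4, 58.0 and 62.6 in WT replicates a, b and c and of 66.0, 64.1 and 73.7 in *Mll1KO* replicates a, b and c. The groups did not overlap, but the highest WT library and the lowest *Mll1KO* library were close, and *Mll1KO* replicate c stood above the other 2. The mean was 60.7 ± 2.39 in WT and 67.9 ± 5.10 in *Mll1KO* (SD, n = 3 each), or 112.0% of WT. Its log2 fold change was 0.16 (SE 0.06) with the scaling by library total and -0.16 with libraries scaled to rod genes.

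*Slc6a9* (ENSMUSG00000028542, chromosome 4 from 117834506 to 117875198, plus strand), the glycine transporter of the plasma membrane, had an RPKM of 30.3, 29.9 and 32.1 in WT replicates a, b and c and of 35.4, 36.4 and 37.7 in *Mll1KO* replicates a, b and c. All *Mll1KO* libraries were higher than all WT libraries. The mean was 30.8 ± 1.17 in WT and 36.5 ± 1.17 in *Mll1KO* (SD, n = 3 each), or 118.6% of WT, with a log2 fold change of 0.24 (SE 0.04) that became -0.08 with libraries scaled to rod genes.

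*Abat* (ENSMUSG00000057880, chromosome 16 from 8513429 to 8621568, plus strand), which encodes the mitochondrial enzyme that degrades GABA, had an RPKM of 18.7, 17.4 and 17.8 in WT replicates a, b and c and of 20.0, 20.4 and 20.8 in *Mll1KO* replicates a, b and c. The *Mll1KO* libraries varied little and lay above the WT libraries. The mean was 18.0 ± 0.624 in WT and 20.4 ± 0.404 in *Mll1KO* (SD, n = 3 each), or 113.6% of WT. Its log2 fold change was 0.18 (SE 0.04), and -0.14 with libraries scaled to rod genes.

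*Slc12a5* (ENSMUSG00000017740, chromosome 2 from 164960802 to 164999731, plus strand), the chloride exporter of neurons, had an RPKM of 166, 171 and 176 in WT replicates a, b and c and of 188, 179.7 and 184 in *Mll1KO* replicates a, b and c. The groups came close without overlapping. The mean was 171 ± 5.06 in WT and 184 ± 4.28 in *Mll1KO* (SD, n = 3 each), or 107.5% of WT. Its log2 fold change of 0.10 (SE 0.04) was the smallest of the members in size, and it was -0.22 with libraries scaled to rod genes.

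With the scaling by library total, 5 of the 6 members were higher in *Mll1KO* and 1 was lower, each without overlap of the groups. Over all genes 14.6% were higher and 26.5% were lower without overlap, and nothing is read from the members' count because the members were chosen with this comparison known. The order of the mean RPKM, a level per gene length, was the same in both genotypes from *Slc12a5* through *Slc32a1*, *Gad1*, *Slc6a9* and *Abat* to *Gad2*. *Gad1* and *Slc6a9* did not differ beyond their spread in either genotype, whereas all other neighbours in this order were separated in every library. By mean WT level, *Slc12a5* ranked 127 and *Slc32a1* ranked 593 among all genes, while *Gad2* ranked 5244. The coefficient of variation between *Mll1KO* replicates was 12.01% for *Gad2* and 1.98% for *Abat*, with a median of 4.87% over all genes.

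Relative to *Slc32a1*, which both transmitter systems use, *Gad1* had an RPKM ratio of 0.486, 0.515 and 0.524 in WT replicates a, b and c and of 0.552, 0.568 and 0.564 in *Mll1KO* replicates a, b and c. The ratio of *Gad2* to *Slc32a1* was 0.170, 0.172 and 0.177 in WT replicates a, b and c and 0.1064, 0.1003 and 0.1103 in *Mll1KO* replicates a, b and c. Within each library, then, *Gad1* was higher and *Gad2* lower per unit of the vesicular carrier in *Mll1KO*, and the mean ratios were 1.10 and 0.61 times those of WT. *Slc6a9*, *Abat* and *Slc12a5* did not separate by genotype when set against *Slc32a1*, with mean ratios of 0.507, 0.297 and 2.82 in WT and of 0.539, 0.301 and 2.72 in *Mll1KO*.

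**Figure D2:**
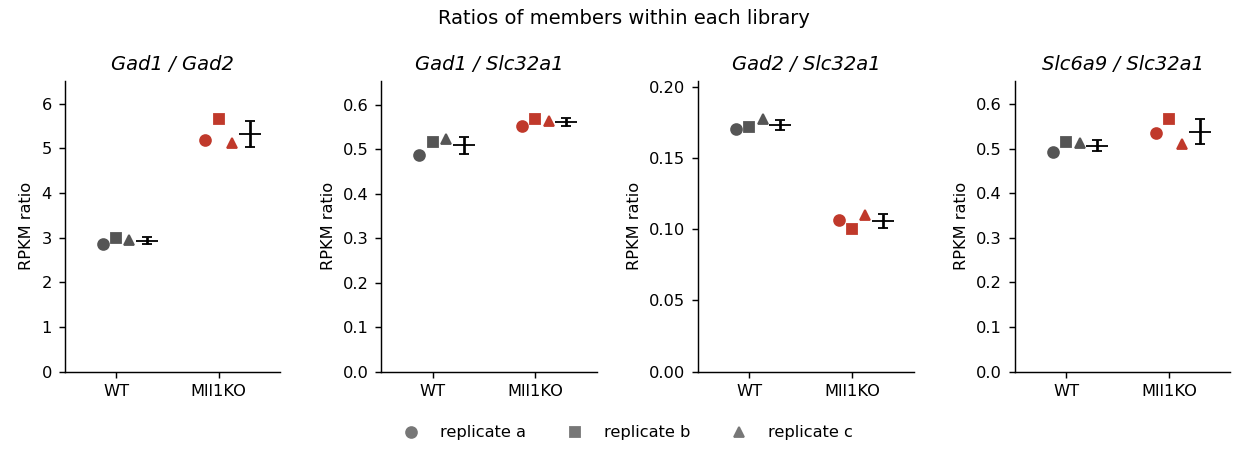
RPKM ratios between members within each library for 3 WT and 3 *Mll1KO* libraries, with the mean ± SD beside the points and each axis starting at 0. The ratio of *Gad1* to *Gad2* lay between 2.856 and 2.998 in WT and between 5.11 and 5.66 in *Mll1KO*, while the ratio of *Slc6a9* to *Slc32a1* overlapped between genotypes.

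The profiles of all genes over the 6 libraries were compared with those of 3 members by the root mean square difference of log2(RPKM + 1), centred on each gene. Nearness was set on these same libraries, so like fold changes follow from the choice and are no separate result. For *Gad2* the nearest were *Barhl2*, which encodes a homeodomain transcription factor (difference 0.0450), *Pknox2* (0.0510) and *Nxph1* (0.0554), which had log2 fold changes of -0.53, -0.51 and -0.52. The added 1 understates weakly expressed genes. The RPKM of *Nxph1* was 2.242, 2.213 and 2.243 in WT replicates a, b and c and 1.207, 1.144 and 1.406 in *Mll1KO* replicates a, b and c. *Nxph1* and *Pknox2* thus fell by a larger share than *Gad2*. *Gad1* was nearest to *Fndc5* (0.0354), *Oplah* (0.0369) and *Prex2* (0.0379), with log2 fold changes of 0.31, 0.33 and 0.33. By RPKM the weakly expressed *Prex2* rose by a larger share than *Gad1*. Among the other members, *Slc6a9* was the 29th nearest gene to *Gad1* and *Slc32a1* the 165th, while *Abat* ranked 500, *Slc12a5* 1206 and *Gad2* 11110 in distance. *Slc32a1* was nearest to *Fibcd1* (0.0140), *1190002N15Rik* (0.0250) and *Fundc1* (0.0258), and *Abat* was its 132nd nearest gene, with *Slc6a9* at rank 203, *Slc12a5* at 609, *Gad1* at 638 and *Gad2* at 11072.

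Of the genes on the lists of GABA and glycine metabolism, transport and chloride handling outside the members, 41 of 50 were listed in the table. Of these, 11 were called higher and 7 lower in *Mll1KO*, with a median log2 fold change of -0.01, against 8.81% higher and 14.5% lower and a median of -0.03 over all genes. With libraries scaled to rod genes 2 were called higher and 31 lower, where 202 of all 11339 genes were called higher and 9696 lower. Without WT replicate b 5 were called higher and 5 lower, against 674 higher and 1030 lower of all genes.

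In the list of GABA synthesis, breakdown and precursors, 4 of 6 genes outside the members were called higher and 0 lower, and 0 were lower with limma at an unadjusted p under 0.05 or with limma-voom. With rod scaling 1 of the 6 was called higher and 3 lower. *Glul*, which encodes the glutamine synthetase of Müller glia, rose most, from an RPKM of 510, 509.7 and 559 in WT replicates a, b and c to 718, 742 and 725 in *Mll1KO* replicates a, b and c (log2 fold change 0.47, SE 0.05, limma adjusted p = 0.000317). It kept its call and its direction in 15 of 15 alternatives, but with the scaling to rod genes the value was only 0.14 (limma adjusted p = 0.0329). *Pdxk*, named after its values were seen, was also called higher at 0.14 (SE 0.04, limma adjusted p = 0.0341) in the main comparison and in 10 of 15 alternatives, while with rod scaling it was called lower at -0.17 (limma adjusted p = 0.00781), and its product takes part in making the pyridoxal phosphate cofactor of the decarboxylases and of GABA transaminase. *Aldh5a1*, whose product completes GABA breakdown after *Abat*, was at 6.90 ± 0.363 in WT and at 6.87 ± 0.318 in *Mll1KO* (SD, n = 3 each; log2 fold change -0.01, SE 0.06, limma adjusted p = 0.954), and was called lower at -0.29 with rod scaling only (limma adjusted p = 0.00155).

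Among 7 vesicular and plasma membrane transporters outside the members, 4 were called higher and 1 lower, against 5 and 0 with TMM factors and 1 and 2 with rod scaling. The GABA transporter gene *Slc6a13* rose from an RPKM of 3.84, 4.98 and 6.43 in WT replicates a, b and c to 8.63, 9.75 and 8.40 in *Mll1KO* replicates a, b and c. Its groups were well apart although the WT libraries spread widely (log2 fold change 0.73, SE 0.13, limma adjusted p = 0.00363), and the call was kept in 15 of 15 alternatives, at 0.44 with rod scaling.

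*Slc6a11*, another GABA transporter gene, was lower, at 81.1 ± 2.95 in WT and 71.9 ± 4.79 in *Mll1KO* (SD, n = 3 each; log2 fold change -0.17, SE 0.05, limma adjusted p = 0.0406). This call held in only 7 of 15 alternatives, with a limma adjusted p of up to 0.126, and was lost with TMM, RLE and upper-quartile factors, while with rod scaling the value was -0.50 (limma adjusted p = 2.43e-05). *Slc6a5*, another glycine transporter gene, was at 4.65 ± 0.168 in WT and 5.69 ± 0.581 in *Mll1KO* (SD, n = 3 each; log2 fold change 0.24, SE 0.07, limma adjusted p = 0.0326), a call that held in 8 of 15 alternatives with an adjusted p of up to 0.665, and the value was -0.04 with rod scaling. The RPKM ratio of *Slc6a9* to *Slc6a5* was 6.62 ± 0.495 in WT and 6.46 ± 0.582 in *Mll1KO* (SD, n = 3 each), and the groups overlapped.

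Of 7 genes for carriers of glutamine, glutamate or neutral amino acids, 1 was called higher and 1 lower, against 8.81% and 14.5% over all genes. With rod scaling 0 were called higher and 7 lower, where 9696 of all 11339 genes were lower. *Slc38a5* fell from an RPKM of 4.16 ± 0.225 in WT to 2.59 ± 0.131 in *Mll1KO* (SD, n = 3 each; log2 fold change -0.52, SE 0.06, limma adjusted p = 0.000257; -0.77 with rod scaling). *Slc38a3* was called higher at 0.20 (SE 0.05, limma adjusted p = 0.0163) and went to -0.13 with libraries scaled to rod genes, where it was called lower. Of 8 genes of glycine metabolism, 1 was called higher and 1 lower (0 and 7 with rod scaling), to be read against the same shares and numbers over all genes. *Shmt2*, which encodes the mitochondrial enzyme that makes glycine from serine, fell from 25.7 ± 0.985 in WT to 20.8 ± 0.945 in *Mll1KO* (SD, n = 3 each). Its log2 fold change was -0.29 (SE 0.05, limma adjusted p = 0.00233), and -0.61 with rod scaling. *Psat1*, of serine synthesis, was called higher at 0.19 (SE 0.05, limma adjusted p = 0.0187) in the main comparison and kept the call in 11 of 15 alternatives, with an adjusted p of up to 0.121 and a value of -0.10 with rod scaling.

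Among 13 genes of chloride handling besides *Slc12a5*, 1 was called higher and 4 were called lower, against 8.81% and 14.5% over all genes. With rod scaling 0 were called higher and 12 lower, where 9696 of all 11339 genes were lower. *Slc4a3*, which encodes a chloride-bicarbonate exchanger, had an RPKM of 30.1, 31.7 and 31.3 in WT replicates a, b and c and of 17.9, 18.6 and 19.7 in *Mll1KO* replicates a, b and c. It had the largest fall of these lists (log2 fold change -0.70, SE 0.05, limma adjusted p = 1.52e-05), and the call was kept in 15 of 15 alternatives, at -1.01 with rod scaling. *Slc4a8*, of the same transporter family, was called higher at 0.23 (SE 0.04, limma adjusted p = 0.00365), and was at -0.07 with rod scaling, where it was not called. The chloride importer gene *Slc12a2*, which acts against *Slc12a5*, was at 10.3 ± 0.213 in WT and 9.13 ± 0.342 in *Mll1KO* (SD, n = 3 each; log2 fold change -0.15, SE 0.05, limma adjusted p = 0.0440). Only 5 of 15 alternatives kept this call, and the adjusted p reached 0.145, while with rod scaling the value was -0.45 (limma adjusted p = 3.62e-05). The RPKM ratio of *Slc12a5* to *Slc12a2* was 16.3, 16.3 and 17.4 in WT replicates a, b and c and 21.5, 19.0 and 20.0 in *Mll1KO* replicates a, b and c, without overlap.

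**Figure D3:**
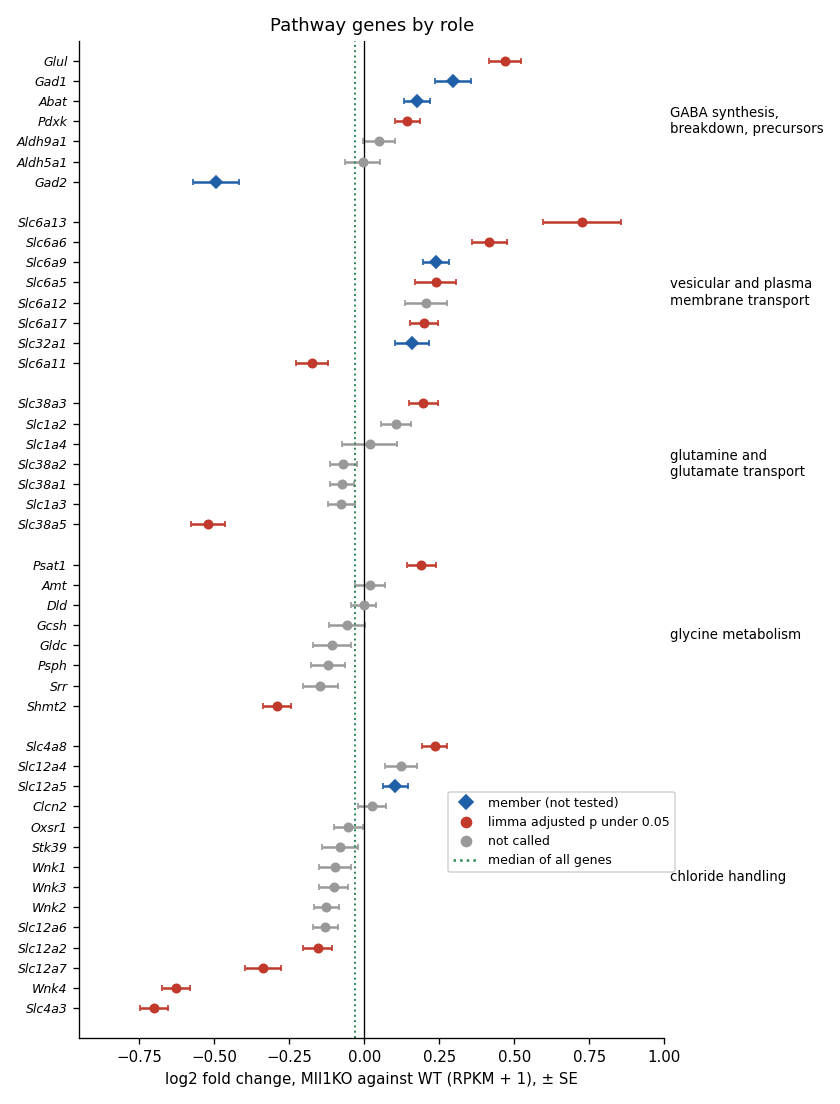
Log2 fold change with SE between 3 *Mll1KO* and 3 WT libraries for the 6 members (diamonds, not tested) and 38 of the 41 other pathway genes (circles, red where limma called them), in blocks by role, with the median of all genes as a dotted line. *Slc6a13* was highest at 0.73 and *Slc4a3* lowest at -0.70 with the scaling by library total, while with rod scaling values such as those of *Gad1* and *Slc6a9* went below 0.

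Of 26 listed genes for GABA and glycine receptor subunits and their postsynaptic scaffold, 5 were called higher and 4 lower, against 8.81% higher and 14.5% lower over all genes. With rod scaling 2 were called higher and 20 lower, where 202 of all 11339 genes were higher and 9696 lower. *Gabra2* rose from an RPKM of 4.30 ± 0.326 in WT to 9.57 ± 1.57 in *Mll1KO* (SD, n = 3 each; log2 fold change 0.98, SE 0.10, limma adjusted p = 0.000168), and *Glra1* fell from 10.8 ± 1.10 in WT to 7.56 ± 0.596 in *Mll1KO* (SD, n = 3 each; log2 fold change -0.46, SE 0.08, limma adjusted p = 0.00232), both in 15 of 15 alternatives and at 0.70 and -0.76 with rod scaling. *Gabbr2* was called lower at -0.25 (SE 0.05, limma adjusted p = 0.00499; -0.57 with rod scaling), and *Gabarapl1* higher at 0.26 (SE 0.04, limma adjusted p = 0.00168), though with rod scaling it was at -0.06 and not called.

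Markers of the cell types that hold these genes also differed between genotypes. Of 8 amacrine markers 8 were called lower, against 14.5% of all genes, with a median log2 fold change of -0.28. With rod scaling the 8 were called lower at a median of -0.59, where 9696 of all 11339 genes were lower and their median was -0.32. The summed RPKM of these markers was 425, 428 and 432 in WT replicates a, b and c and 337, 312 and 312 in *Mll1KO* replicates a, b and c. *Calb2* was the most abundant of them. Set against the geometric mean of these 8 markers in each library, a comparison made after the values were seen, *Gad1* was at 1.22 ± 0.0894 in WT and 1.90 ± 0.0871 in *Mll1KO* (SD, n = 3 each). The same ratio was 2.41 ± 0.0947 in WT and 3.38 ± 0.143 in *Mll1KO* (SD, n = 3 each) for *Slc32a1*, and 0.417 ± 0.0257 in WT and 0.357 ± 0.0315 in *Mll1KO* (SD, n = 3 each) for *Gad2*, whose groups came close, with a lowest WT ratio of 0.398 and a highest *Mll1KO* ratio of 0.390. The mean ratio in *Mll1KO* was 1.49 times that in WT for *Slc6a9*, 1.43 times for *Abat* and 1.35 times for *Slc12a5*, each without overlap. These ratios do not depend on the scaling between libraries. They are not values per amacrine cell, since not all of the markers are confined to these cells. The paper lists calretinin, the product of *Calb2*, for both amacrine and horizontal cells.

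The markers of amacrine subtypes were mixed. Of 6 listed markers of GABAergic amacrine cells 2 were called higher and 2 lower (1 and 4 with rod scaling), and their summed RPKM overlapped between genotypes (111, 103 and 102 in WT replicates a, b and c, 107, 91.6 and 113 in *Mll1KO* replicates a, b and c), with *Npy* the most abundant. For glycinergic amacrine cells, 4 of 8 listed markers were called lower and 0 higher (1 higher with TMM factors, 7 lower with rod scaling), with sums of 94.5, 94.1 and 95.2 in WT replicates a, b and c and of 87.9, 86.4 and 90.7 in *Mll1KO* replicates a, b and c. *Gjd2* was the most abundant of these. Of 6 markers of starburst amacrine cells, which release GABA and acetylcholine, 1 was called, *Isl1*, lower, against 2 higher and 1 lower with TMM, RLE or upper-quartile factors and 0 and 4 with rod scaling. *Isl1* was the most abundant of the 6 and did not stand for the list. The median log2 fold change of the 6 was 0.09 in the main comparison and -0.21 with rod scaling, against -0.03 and -0.32 over all genes.

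Horizontal cell markers were called lower in 5 of 6 cases (6 with rod scaling), with sums of 111, 113 and 109 in WT replicates a, b and c and of 79.4, 81.8 and 84.5 in *Mll1KO* replicates a, b and c. Ganglion cell markers were called lower in 8 of 9 cases (7 with TMM factors, 9 with rod scaling) and bipolar markers in 6 of 10 (5 with TMM factors, 10 with rod scaling). Of 11 markers of Müller glia, which include *Glul*, 6 were called higher and 1 lower (2 and 5 with rod scaling), with sums of 1466, 1442 and 1594 in WT replicates a, b and c and of 1853, 1944 and 1906 in *Mll1KO* replicates a, b and c. Of 12 rod markers 10 were called higher and 1 lower (1 and 3 with rod scaling), and their summed RPKM was 16208, 15309 and 15784 in WT replicates a, b and c and 19779, 20096 and 19514 in *Mll1KO* replicates a, b and c. Rod scaling makes the sum of these same 12 markers equal, so its counts for them are no result about rods. Of 10 cone markers 7 were called higher and 1 lower (3 and 3 with rod scaling), of 3 astrocyte markers 3 were called higher (1 with rod scaling), and of 7 endothelial markers 1 was called higher and 3 lower (0 and 5 with rod scaling). Of 3 microglial and 4 pigment epithelium markers 0 were called by limma or limma-voom, and 0 were below an unadjusted p of 0.05, while rod scaling called 2 of each lower. The part of these shifts in the members' values was not tested.

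Pigment cell RNA varied widely between libraries of a genotype, with an RPKM of *Pmel*, chosen after its values were seen, of 57.1, 15.1 and 99.4 in WT replicates a, b and c and of 9.37, 34.0 and 11.0 in *Mll1KO* replicates a, b and c. The lens gene *Cryaa* and *Acta2* were also chosen after their values were seen. *Cryaa* was at 6.54, 6.61 and 7.51 in these WT replicates and at 32.1, 12.4 and 7.28 in these *Mll1KO* replicates (limma adjusted p = 0.0949). *Acta2* was at 14.5, 3.21 and 22.3 in WT and at 3.99, 3.56 and 3.34 in *Mll1KO*. *Gad2* was lower in *Mll1KO* whichever single library was left out, with log2 fold changes from -0.58 to -0.43, and *Gad1* was higher, from 0.23 to 0.34. The ranges were 0.10 to 0.20 for *Slc32a1*, lowest without *Mll1KO* replicate c, 0.22 to 0.27 for *Slc6a9*, 0.15 to 0.20 for *Abat* and 0.08 to 0.12 for *Slc12a5*.

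By position, 4 of the 6 members lie on chromosome 2, which holds 8.05% of the genes measured. Reads of *Gad1* and *Gad2* could be told apart well, since 67.4% of the aligned coding bases were identical and the longest identical run was 17 bases, below the read length of 50. For *Gad1* 1.49% of its 50-base stretches occur in transcripts of other genes, mostly the pseudogene *Gad1-ps*, and 1.17% for *Gad2*. In *Slc32a1* 24.9% of the exon bases overlap exons of the antisense gene *Gm14205*, and in *Slc6a9* 30.2% overlap exons of other genes, mainly *Ccdc24* on the minus strand. The counting is not stated to use strand, so reads of such partners cannot be told apart. *Ccdc24* had an RPKM of 10.8 ± 0.429 in WT and 9.54 ± 0.436 in *Mll1KO* (SD, n = 3 each).

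Promoter sequences of RefSeq (GRCm38.p6) were found for 5 of the 6 members, in 8 windows from 250 bases before to 50 bases after a start, and the remaining member is *Abat*. MLL1 has a domain that binds unmethylated CpG, so the CpG content is given. The motif CG occurred 21 times in the window of *Gad1*, 14 times in that of *Gad2* and 17 times in that of *Slc32a1*, with a median of 7 over 32851 windows, 94.6% of which hold at least 1. Of all windows, 24.8% had as many as *Gad1* or more and 36.3% as many as *Gad2* or more. TATAAA, read on both strands, occurred once in the window of *Gad1* and was absent from those of *Gad2* and *Slc32a1*, and 13.6% of all windows hold it. GGGCGG, on both strands, always holds a CG, so these counts are not separate from those of CG. It occurred 1 time in the window of *Gad1* and 0 times in those of *Gad2* and *Slc32a1*, and 35.7% of all windows hold it. CANNTG occurred 1, 1 and 2 times in *Gad1*, *Gad2* and *Slc32a1*, and 72.3% of all windows hold it. A match is a description of letters only. Bases of the plus strand are shown for the decarboxylase genes, which differed in opposite directions with the scaling by library total, and for *Slc32a1*. Each sequence is the 250 bases before the RefSeq start, cut short where GENCODE has an exon start among them, with CG in capitals. That of *Gad1* lies inside the gene as GENCODE has it, after an earlier exon that starts at 70553072:
*Gad1*, chr2:70561879-70562041: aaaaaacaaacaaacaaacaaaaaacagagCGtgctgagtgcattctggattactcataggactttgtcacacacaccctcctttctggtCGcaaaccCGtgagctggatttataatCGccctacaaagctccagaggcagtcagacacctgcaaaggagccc
*Gad2*, chr2:22622077-22622204: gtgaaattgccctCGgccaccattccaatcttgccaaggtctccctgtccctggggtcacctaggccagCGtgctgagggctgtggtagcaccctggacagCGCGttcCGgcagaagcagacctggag
*Slc32a1*, chr2:158610508-158610757: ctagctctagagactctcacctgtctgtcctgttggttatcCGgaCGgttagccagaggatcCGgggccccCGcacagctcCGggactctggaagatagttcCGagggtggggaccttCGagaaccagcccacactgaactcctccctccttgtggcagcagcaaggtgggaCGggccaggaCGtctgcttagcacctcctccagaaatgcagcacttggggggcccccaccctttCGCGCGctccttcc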

How the data were processed

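RPKM was deposited by the authors for 3 *Mll1KO* and 3 WT libraries of 50-base single-end reads. Per the submitters' processing notes, they used STAR 2.0.4b, featureCounts 1.45 of Subread and edgeR 3.17.9 with the build mm10, while the paper's Methods name the build and the edgeR version differently. The authors had kept genes with a CPM over 5 in 5 samples or more. Their own columns of fold change, mean abundance, p-value and FDR from edgeR were not used. The strand setting of the counting is not given in the sources used here.

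The table held 11404 lines for 11339 genes, and 11323 IDs matched GENCODE vM21, from which positions and exons were taken. The annotated exon length gave whole reads within 0.05 for 53.41% of matched genes. For the others the length was searched so that reads are whole, so their wholeness is no check. limma 3.58.1 (R 4.3.3) with a variance trend compared log2(RPKM + 1) between genotypes, with Benjamini-Hochberg adjustment over all genes at 0.05, and was tested on simulated reads. The 3 replicates per group are called biological in the Methods. Python 3.11.15, numpy and pandas were used for ratios, likeness and motifs, and Biopython for the coding alignment.

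The members and gene lists were chosen with earlier results of these data known. Besides the members and *Kmt2a*, the genes named were those called with the largest rise and fall of each pathway list, *Slc6a11*, *Slc6a13*, *Slc6a5*, *Aldh5a1*, *Slc12a2*, the 3 nearest profiles of *Gad1*, *Gad2* and *Slc32a1*, and the most abundant gene of marker lists. *Pdxk*, *Pmel*, *Cryaa* and *Acta2* were named outside this rule after their values were seen, and *Ccdc24*, *Gm14205* and *Gad1-ps* for overlapping exons or shared sequence. A few genes are not reported here or in the plot of pathway genes. Alternatives were pseudocounts of 0.1 and 5, a minimum mean RPKM of 1, RLE, TMM, upper-quartile and rod scaling, limma-voom on recovered reads, a replicate block and leaving out each library.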

Additional observations from a re-analysis of the deposited data

How the results depend on the processing

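Under 15 alternatives the 6 members gave 90 values, of which 5 changed sign, all with scaling to rod genes: *Gad1* went to -0.023, *Slc32a1* to -0.16, *Slc6a9* to -0.079, *Abat* to -0.14 and *Slc12a5* to -0.22. The median of the members went from 0.17 to -0.15 there, and that of all genes from -0.03 to -0.32. Leaving out 1 library gave medians from 0.13 to 0.19. The ratio of mean *Gad1* to *Gad2* ratios between genotypes was 1.81, and ranged from 1.75 to 1.85 without 1 library.

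The count of called genes was 2643. It was 9898 with rod scaling, and from 1704 without WT replicate b to 2536 without *Mll1KO* replicate a. It was 1757 without *Mll1KO* replicate c. For pathway genes outside the members the count was 18, 33 with rod scaling (2 higher, 31 lower), and from 10 (without WT replicate b) to 16 without 1 library. For receptor genes it was 9, 22 with rod scaling (2 higher, 20 lower), and from 8 to 9 without 1 library.

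With rod scaling *Gabarapl1* went to -0.061, *Psat1* to -0.10, *Slc38a3* to -0.13, *Slc4a8* to -0.075 and *Slc6a5* to -0.036. *Aldh5a1* went to -0.29 with rod scaling, where it was called lower, and was 0.025 with RLE, 0.023 with TMM and 0.021 with upper-quartile factors, and from -0.042 to 0.027 without 1 library. Of 240 values of 16 pathway genes named by the rule, without *Pdxk*, 200 kept their direction and side of the threshold.

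No pairing of the libraries by the letters a, b and c was seen: deviations from the group means correlated at -0.04, -0.19 and -0.01 for the same letters. For different letters the values ran from -0.09 to 0.13. The deviations within a group cancel out, so these correlations depend on each other. Whether libraries of the same letter were prepared together was not tested. With the replicate block 2242 genes, 16 pathway genes and 9 receptor genes were called, and *Slc12a2* and *Slc6a5* were not. The least abundant gene of each library still had 90 to 120 reads. The cause of the lower counts without 1 library was not tested apart from the smaller number of samples.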
